A study of Gallus gallus with 6 samples.

Results

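The genes described here encode proteins of the mitochondrial ribosome, measured in the brains of chick embryos. They were taken as every probe set on the array whose only gene symbol in the platform annotation starts with MRPL or MRPS followed by a digit, which gave 96 of 37693 chicken probe sets and 67 of 13008 named genes. By the RefSeq annotation of the assembly GRCg7b, 5 of the 67 lie on the Z chromosome and 62 on autosomes, and none lies on the W. Each pool combined the brains of 5 to 8 embryos of 1 genetically determined sex at stage 29, reached after 6 to 6.5 days in the incubator. There were 3 female and 3 male pools, each on 1 Affymetrix chicken array, and no agent or mutation is named in the labels, nor is a strain. The pools of both sexes share stage and tissue, and each pool averages several embryos, so the spread between pools is not that between embryos. A bulk brain pool cannot tell fewer cells of a type from less RNA per cell.

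Mitochondria keep their own ribosome, which makes a small set of membrane proteins of the respiratory chain and the ATP synthase from messages of the mitochondrial genome. All of its proteins are encoded in the nucleus, made in the cytosol and imported. It has a large subunit, which forms peptide bonds, and a small subunit, which reads the message. Some of its proteins have relatives in the ribosomes of bacteria, and others are found only in mitochondria. Female birds carry a Z and a W chromosome and males a pair of Z chromosomes, so a Z-linked subunit is present in fewer gene copies in females than the autosomal subunits it is assembled with. The comparison asks how the messages of these subunits differed between the sexes.

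Signals are log2 values after RMA scaling, and a difference of 1 on this scale is 2-fold. Of the 67 genes 64 had a brightest probe set above 4.21, a background level under which 95% of the array's viral probe sets lay. The median signal over the 67 genes was 9.21, against 6.35 over all named genes, and 39 genes lay at or above 9. Signals of different probe sets depend on their probes, so they do not rank the genes by message level. The highest signals were those of MRPL13 (11.43), MRPS26 (10.81), MRPL54 (10.74) and MRPL27 (10.71), of which MRPS26 belongs to the small subunit and the other 3 to the large. The lowest were those of MRPL30 (3.00), MRPL34 (3.74), MRPL33 (3.82) and MRPL21 (5.31). Of these, MRPL30, MRPL34 and MRPL33, all relatives of bacterial large-subunit proteins, lay under the background level in every pool, and their differences between the sexes cannot be read. Arrays correlated at 0.988 to 0.995 with each other over chicken probe sets, and 14 W-linked probe sets passed the test as lower in males.

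All 5 Z-linked genes rose in males, and no autosomal gene of the family passed the test. The sexes were compared in limma (n = 3 pools per sex), the p-values of all 37693 probe sets were adjusted together by the method of Benjamini and Hochberg, and an adjusted p under 0.05 counted as passing. Of the 96 probe sets 8 passed, all higher in males and all of Z-linked genes, where 0.554% of all chicken probe sets passed. By the brightest probe set 5 of 5 Z-linked members rose, beside 17.2% of 605 Z genes, and 0 of 62 autosomal members passed, beside 0.0492% of 12207 autosomal genes. The count of 8 was 5 without female pool 2 and 5 without female pool 3. The lowest adjusted p among autosomal members was 0.259 (limma).

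**Figure D1:**
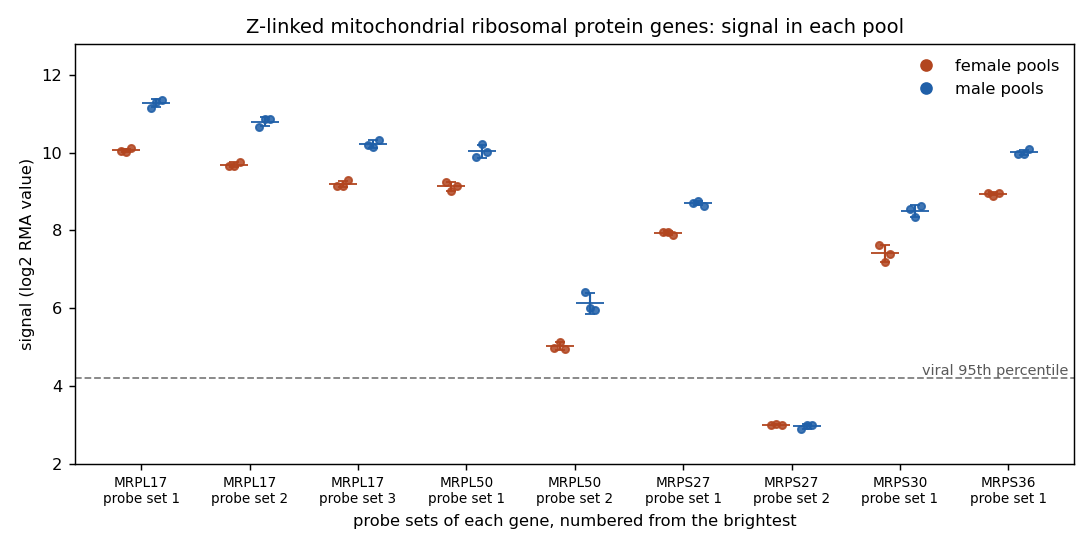
Signal (log2 RMA value) in each of the 3 female and 3 male pools for the 9 probe sets of the 5 Z-linked genes. Points are pools, horizontal marks are means and bars are SDs, and the dashed line is the viral 95th percentile of 4.21. In 8 of the 9 probe sets all male pools lie above all female pools, and the exception is the second probe set of MRPS27, which lies under the dashed line in every pool.

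MRPL17, the relative of bacterial ribosomal protein L17 in the large subunit, had the largest difference of the family. Its signal was 10.06, 10.02 and 10.11 in the female pools and 11.16, 11.31 and 11.35 in the male pools. Every male pool lay at least a full unit above every female pool, and within a sex the pools differed by less than 0.2. The difference was 1.21 (SE 0.08, 2.31-fold, limma adjusted p = 0.00141), with a 95% interval of 1.02 to 1.39. The other 2 probe sets of MRPL17 rose by 1.11 (SE 0.09) and 1.02 (SE 0.08). By their names all probe sets of MRPL17 come from the same cluster of transcripts, the brightest and the second from the same part of it. They may therefore share probes.

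MRPL50, a large-subunit protein with no bacterial relative, had signals of 9.26, 9.02 and 9.13 in female pools and 9.88, 10.22 and 10.02 in male pools. The groups did not overlap, and the difference was 0.90 (SE 0.11, 1.87-fold, limma adjusted p = 0.0132). Its second probe set, much dimmer at 4.95 to 5.13 in female and 5.94 to 6.43 in male pools, rose by 1.10 (SE 0.13). The suffix of the brightest probe set marks probes that can match more than 1 transcript. The brightest probe set of MRPL50 had an adjusted p of 0.0788, 0.0651 or 0.0510 (limma) when female pool 2, female pool 3 or male pool 3 was left out, with differences of 0.85 to 0.92.

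MRPS30 was named for the small subunit, but structures of the mammalian ribosome place the protein in the large one. Its signal was 7.63, 7.19 and 7.40 in female pools and 8.55, 8.34 and 8.63 in male pools. The groups did not overlap, and the female pools spread more than those of the other Z-linked genes by the brightest probe set, with a range of 0.44. The difference was 1.10 (SE 0.13, 2.14-fold, limma adjusted p = 0.0125), from a single probe set. The call was lost without female pool 2 (adjusted p = 0.0504), female pool 3 (0.0608), male pool 1 (0.0739) or male pool 3 (0.0505, limma), with differences of 0.99 to 1.09.

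MRPS27, a member of the pentatricopeptide repeat family, was the only Z-linked protein of the small subunit. Its brightest probe set read 7.97, 7.96 and 7.89 in female pools and 8.72, 8.77 and 8.64 in male pools. Pools of a sex lay within 0.13 of each other and the sexes did not overlap. The difference of 0.77 (SE 0.07, 1.70-fold, limma adjusted p = 0.00422) was the smallest of the 5, and its 95% interval of 0.60 to 0.93 lies below 1 and below the interval of MRPL17. Whether these genes differ from each other in their response to sex was not tested. A second probe set of MRPS27 lay at 2.89 to 3.01 in all pools, under background, and differed by -0.04 (SE 0.07).

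MRPS36 carries the family's name, but later work made the protein a part of the oxoglutarate dehydrogenase complex of the citric acid cycle. It read 8.98, 8.90 and 8.98 in female pools and 9.98, 9.98 and 10.09 in male pools. The groups were about as tight as those of MRPS27 and stood about 1 unit apart. The difference was 1.06 (SE 0.07, 2.09-fold, limma adjusted p = 0.00152), with an interval of 0.90 to 1.23. Without MRPS36 the median difference of the Z-linked members was 1.00, against 1.06 with it.

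The Z-linked members stood high among Z genes. Their median difference was 1.06, against 0.17 over 600 other Z genes and 0.35 over the 372 of them whose signal reached the array's median. Ranked by difference among all 605 Z genes, MRPL17 was number 5, MRPS30 number 10, MRPS36 number 15, MRPL50 number 51 and MRPS27 number 89. In all 5 the male pools stood above the female pools without overlap, beside 43.1% of Z genes. Genomic span, the length of a gene from start to end in the annotation, moved with the size of the difference. Of those 372 genes, the 89 of up to 10 kb had a median difference of 0.55 and the 283 longer ones 0.33. Their median signals also differed, at 7.93 and 7.01, and that of the Z-linked members was 9.48. Of the 89, 39 passed as higher in males, beside 59 of the 283. The male pools stood higher without overlap in 74.2% of the 89 and 54.1% of the 283. The spans of MRPL50, MRPL17, MRPS30 and MRPS36 were 0.78, 1.00, 5.54 and 7.22 kb, and that of MRPS27 was 46.5 kb. The part of span and of signal in the values of the members was not tested.

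The 4 nearest measured genes on either side of the members passed about as often as Z genes in general. They were read in the order of GRCg7b, with 1 brightest probe set each. Not all were adjacent to the member: SNX30, for one, lay 11 coding genes from MRPL50. Around MRPS36 the neighbours CENPH, a kinetochore protein, and CDK7, a kinase of transcription initiation and the cell cycle, rose by 0.95 (SE 0.10) and 0.91 (SE 0.10). The zinc transporter SLC30A5, on the far side of CENPH, rose by 0.74 (SE 0.09). SERINC5, next after CDK7, gave -0.14 (SE 0.13). Beside MRPS27 lay PTCD2, a further pentatricopeptide repeat protein of mitochondria, which rose by 0.83 (SE 0.09), while MAP1B, the microtubule-associated protein on its other side, gave -0.21 (SE 0.26). Next to MRPL17, ARHGEF39 rose by 0.88 (SE 0.11), and CCBE1 on the other side gave 0.12 (SE 0.08) at a signal under background.

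Around MRPS30 none of 8 neighbours passed, with differences of -0.16 to 0.42, and 4 of the 8 lay under background. FGF10, a growth factor gene directly beside it, was one of these. Near MRPL50 the ubiquitin ligase gene RNF20 rose by 0.65 (SE 0.07) and the other 7 gave 0.01 to 0.27. In all, 6 of the 40 neighbours passed, all higher in males, beside 17.2% of all Z genes, with limma adjusted p of 0.00622 to 0.0169. Among the neighbours with no other coding gene between them and the member, ARHGEF39, CENPH, CDK7 and PTCD2 passed. CCBE1, FGF10, MAP1B and PLPPR1, placed likewise, did not, and of these CCBE1 and FGF10 lay under background. The median difference of the 8 neighbours was 0.05 around MRPS30, 0.13 around MRPL50 and MRPS27, 0.18 around MRPL17 and 0.28 around MRPS36, beside 0.17 over Z genes outside the family.

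**Figure D2:**
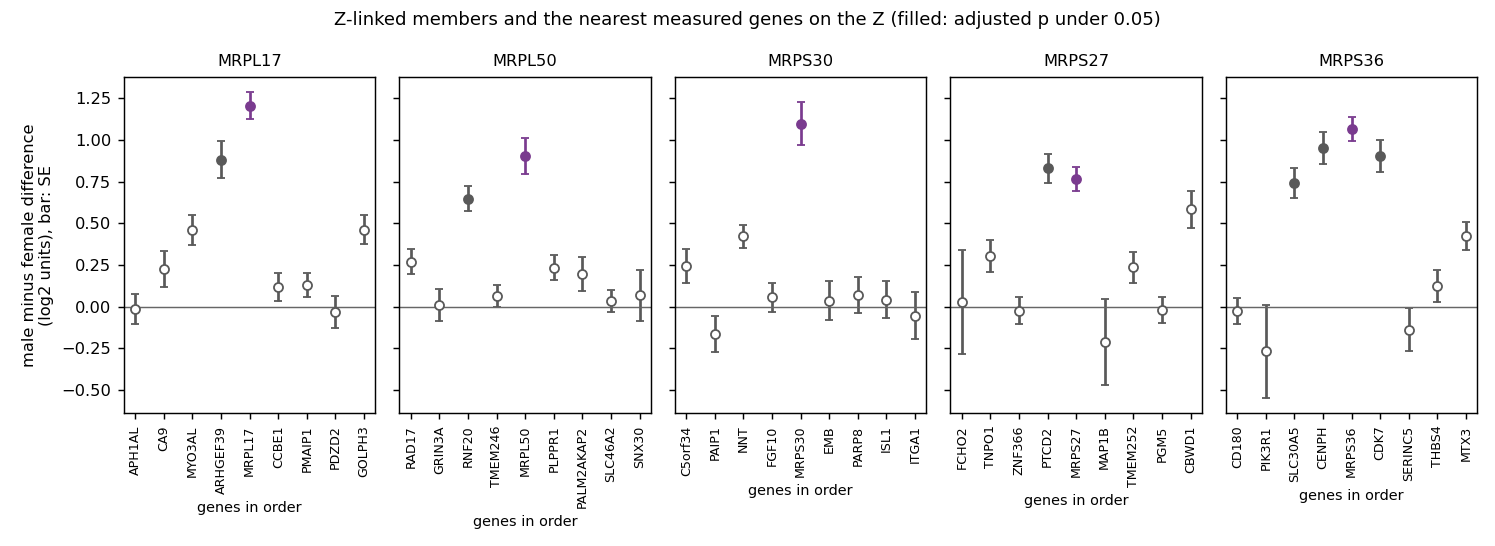
Male minus female difference (log2 units, bars are SEs) of each Z-linked member (purple) and of the 4 nearest measured genes on either side in the order of GRCg7b. Filled points have an adjusted p under 0.05. The highest point is the member itself in every panel but that of MRPS27, where PTCD2 lies at 0.83 and the member at 0.77.

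Outside the family, the genes whose pattern over the 6 pools was most like that of MRPL17 were ANKRA2, DCTN3, GADD45G, CPTP and PLAA, among 10539 genes above background. Pearson's r was 0.999 for ANKRA2 and 0.994 to 0.995 for the other 4, as a description over 6 pools that fall into 2 groups by sex. ANKRA2, DCTN3, GADD45G and PLAA lie on the Z and differed by 0.81, 0.99, 0.99 and 0.92, while CPTP lies on chromosome 21 and differed by 0.09.

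The 62 autosomal members were shifted the same way by a much smaller amount. Their median difference was 0.14 (1.10-fold), with quartiles of 0.07 and 0.21 and a range of -0.09 to 0.37, against 0.01 over 12145 other autosomal genes. The difference was above 0 for 54 of the 62, beside 53.2% of autosomal genes. Of the 59 above background it was above 0 for 51. In 23 of the 62 the lowest male pool was above the highest female pool, beside 10.5% of autosomal genes, and the reverse held for 0 of the 62, beside 7.28%. Among 536 other autosomal genes within the members' quartiles of genomic span and signal, the median difference was 0.09 and 73.3% lay above 0. In 23.7% of these 536 the male pools stood higher without overlap, and in 3.92% the female pools did. At an unadjusted p under 0.05 there were 13 members higher in males, beside 5.46% of autosomal genes, and 0 lower, beside 5.59%. None passed after adjustment, and without female pool 2 the median was 0.09 and 47 of the 62 lay above 0.

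**Figure D3:**
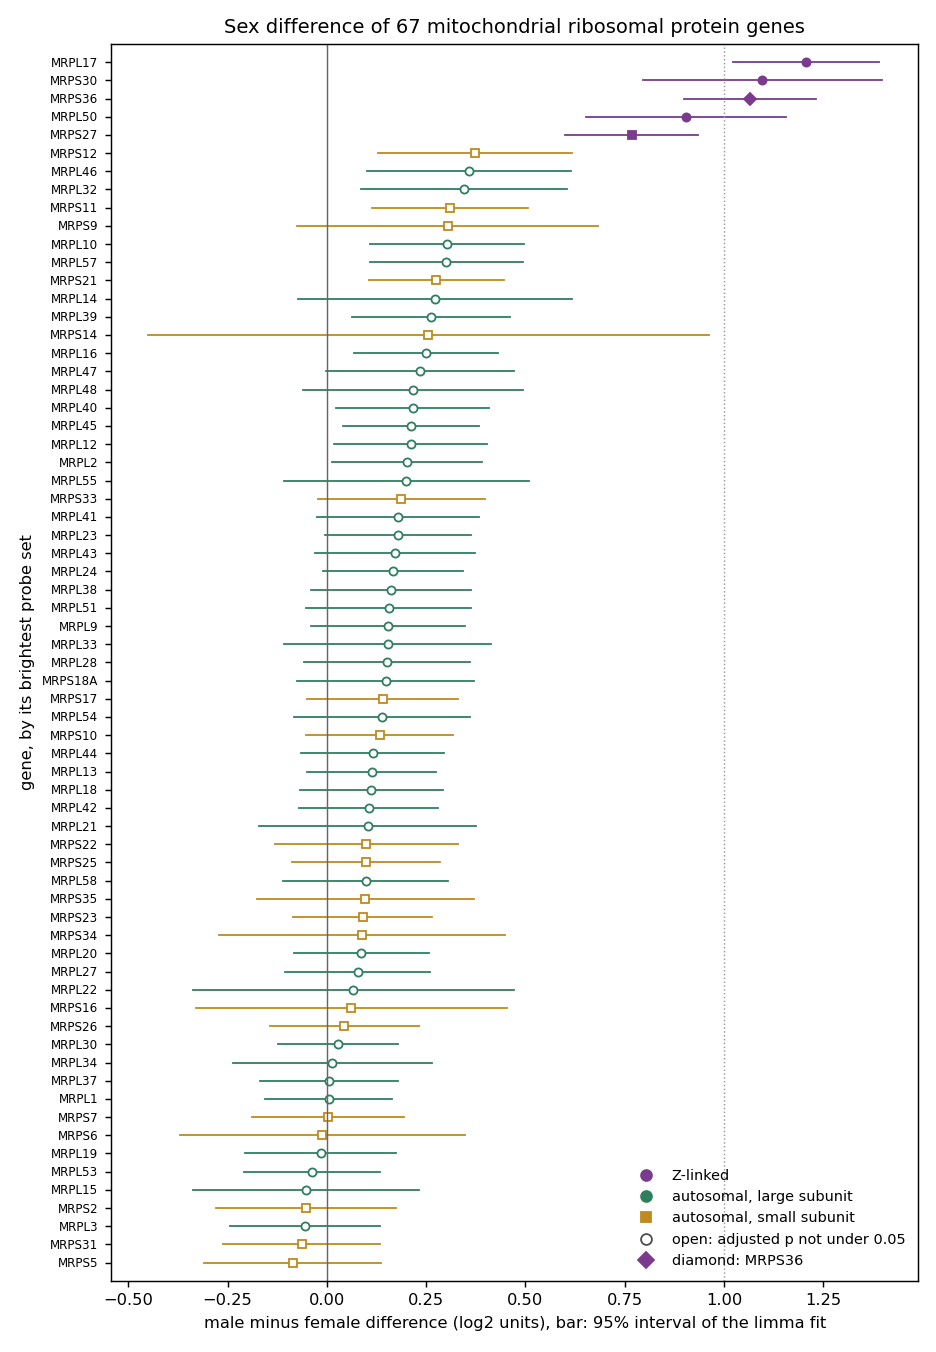
Male minus female difference (log2 units) of the 67 genes by their brightest probe set, with the 95% interval of the limma fit. Filled symbols have an adjusted p under 0.05, and the dotted line marks a difference of 1. The 5 Z-linked genes lie between 0.77 and 1.21, and the 62 autosomal genes between -0.09 and 0.37.

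The largest autosomal differences higher in males included proteins of both subunits. MRPS12, the relative of a bacterial protein of the decoding site, read 8.34, 8.21 and 8.30 in female and 8.55, 8.55 and 8.88 in male pools, a difference of 0.37 (SE 0.10, limma adjusted p = 0.286). Next came MRPL46, MRPL32, MRPS11, MRPS9 and MRPL10, with differences of 0.36 (SE 0.11), 0.35 (SE 0.11), 0.31 (SE 0.08), 0.30 (SE 0.16) and 0.30 (SE 0.08) and limma adjusted p of 0.272 to 0.575. The sexes did not overlap in 5 of these 6 genes, beside 10.5% of all autosomal genes and 37.1% of the autosomal members. The 6 were chosen by these same differences, so this count adds nothing to them. The exception was MRPS9, which read 8.76 to 9.21 in female and 8.98 to 9.53 in male pools. MRPS11, a small-subunit protein with a bacterial relative, and MRPL46, a large-subunit protein without one, are direct neighbours on chromosome 10, and no other members are adjacent in this annotation. MRPS11 read 9.39, 9.14 and 9.34 in female and 9.59, 9.61 and 9.61 in male pools. MRPL46 read 8.97, 8.57 and 8.85 in female and 9.09, 9.17 and 9.21 in male pools, so both had their lowest value in female pool 2. That is not particular to the pair, as only 3 of 59 autosomal members above background lay above their own mean in that pool.

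At the other end, the brightest probe sets of MRPS5, MRPS31, MRPL3, MRPS2, MRPL15 and MRPL53 were lower in males by values within their errors. MRPS5, a relative of a bacterial small-subunit protein, gave -0.09 (SE 0.10), and MRPS31, found only in mitochondria, gave -0.06 (SE 0.08). MRPL3, whose bacterial relative reaches towards the peptidyl transferase centre, gave -0.05 (SE 0.08), with 10.42 to 10.48 in female and 10.32 to 10.53 in male pools. A second probe set of MRPL3, with a mean signal of 4.61 just above background, gave -0.33 (SE 0.15) without passing. MRPS2 and MRPL15, with bacterial relatives, gave -0.05 (SE 0.10) and -0.05 (SE 0.12), and MRPL53, without one, gave -0.04 (SE 0.07). The groups overlapped in all 6 genes, while female pools stood above male pools without overlap in 7.28% of all autosomal genes. The genes of highest signal also differed little: MRPL13 gave 0.11 (SE 0.07), MRPL54 0.14 (SE 0.10), MRPL27 0.08 (SE 0.08) and MRPS26 0.04 (SE 0.08).

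By role, the 42 autosomal genes of the large subunit had a median difference of 0.15. Of these, 38 (90.5%) lay above 0 and 18 (42.9%) had the male pools higher without overlap, beside 53.2% and 10.5% of all autosomal genes. The 20 of the small subunit had a median of 0.10, with 16 above 0 and 5 higher without overlap, beside the same shares. By their standard names, 37 autosomal members counted as having bacterial relatives and 25 as found only in mitochondria. Both groups had a median of 0.14. No difference between these groups was tested.

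In most autosomal members the larger range between pools of a sex exceeded the difference between the sexes, by the brightest probe set. The exceptions were MRPL10, MRPL13, MRPL16, MRPL23, MRPL32, MRPL39, MRPL45, MRPL57, MRPS11, MRPS12 and MRPS21. The members with the widest ranges are described here. MRPS14, with a bacterial relative in the small subunit, read 8.47, 7.27 and 8.44 in female and 8.14, 8.30 and 8.50 in male pools, and its difference was 0.26 (SE 0.30) with female pool 2, the lowest, and -0.14 without it. MRPL22, with one in the large subunit, read 6.77, 6.62 and 7.32 in female pools, with female pool 3 the highest of all 6, and 6.89 to 7.10 in male pools. MRPS34, a small-subunit protein found only in mitochondria, was level in female pools at 9.57 to 9.61 and spread in male pools at 9.31, 9.76 and 9.97. Its second probe set gave the same order of the male pools, with 9.08, 9.50 and 9.78. MRPS16, whose bacterial relative also belongs to the small subunit, read 8.07 to 8.76 in male pools and 8.23 to 8.49 in female pools by its brightest probe set.

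Probe sets of a gene mostly pointed the same way. Of 16 genes with at least 2 probe sets above background, 14 had differences of a single sign. The other 2 were MRPL20 and MRPL53, named here because their values were seen. Of these, MRPL53 gave -0.04 (SE 0.07) and 0.22 (SE 0.21), and MRPL20 gave 0.09 (SE 0.07) and -0.0042 (SE 0.07). In MRPS16 the probe sets pointed the same way with unequal size, with differences of 0.06 (SE 0.17), 0.03 (SE 0.10), 0.45 (SE 0.11) and 0.51 (SE 0.17) in its 4 probe sets from the brightest down, and none passed.

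Pool by pool, female pool 2 was low for most autosomal members. Over the 59 above background, the mean deviation from each gene's own mean was -0.01, -0.16 and -0.04 in the female pools and 0.06, 0.04 and 0.11 in the male pools. Female pool 2 was the lowest of the 6, with 3 of 59 members above their own mean, while male pool 3 was the highest with 49 of 59. For 8629 other autosomal genes whose signal reached the array's median these means lay between -0.01 and 0.02 in every pool. The Z-linked members had means of -0.42, -0.59 and -0.50 in female pools and 0.45, 0.52 and 0.54 in male pools, so for them the gap between the sexes was many times the spread within a sex.

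**Figure D4:**
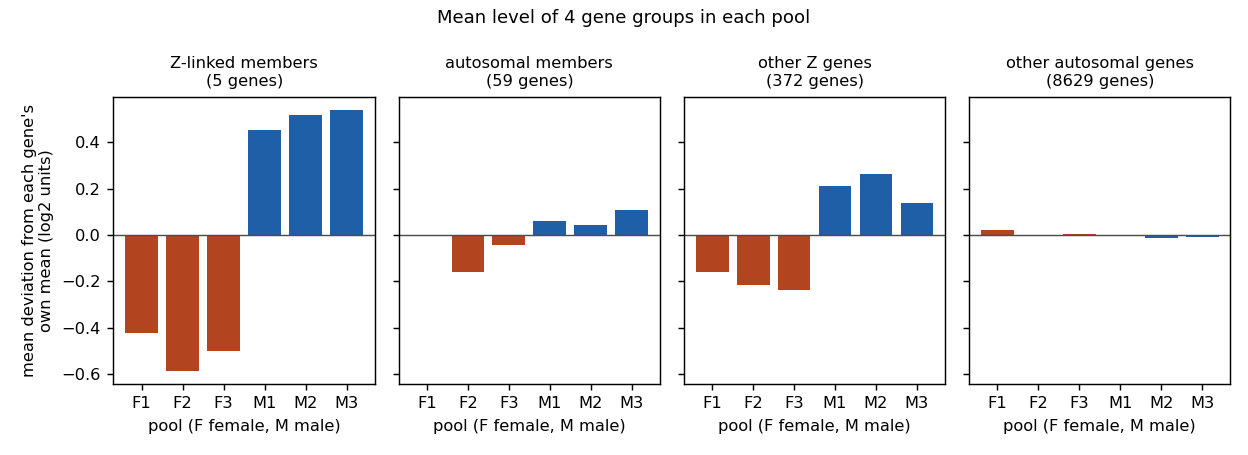
Mean deviation (log2 units) of 4 groups of genes from each gene's own mean over the 6 pools, by pool (F1 to F3 female, M1 to M3 male). Z-linked members range from -0.59 to 0.54 and autosomal members from -0.16 in female pool 2 to 0.11 in male pool 3, while other autosomal genes lie between -0.01 and 0.02.

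Span and the signal of some marker lists moved with the autosomal shift. Among all 12207 autosomal genes the male minus female difference was lower in longer genes, with a Spearman's rho of -0.32, and among the 62 members rho was -0.43. Both are taken across genes, and genes are not independent replicates. The members are short, with a median span of 3.57 kb against 16.9 kb for other autosomal genes. The 3714 other autosomal genes with a span up to 8.72 kb, the members' 75th percentile, had a median difference of 0.06. Genes within the members' quartiles of both span and signal, 536 in number, had 0.09. The 16 members longer than 8.72 kb had 0.10 and the 46 others 0.15. Of the neuron markers 10 of 12 were on the array and 9 lay above background, and their mean signal was 9.49 to 9.79 in female pools and 9.32 to 9.57 in male pools, highest in female pool 2. None passed, and 8 of the 10 were lower in males, while 54.5% of all named genes were higher. The differences ran from -0.45 to 0.03. Of the red blood cell markers 6 of 14 were on the array, with means of 10.22 to 10.82 in female and 10.60 to 11.05 in male pools, lowest in female pool 2. All 6 were higher in males and none passed, with differences from 0.11 for HBA1 to 0.94 for HBZ. The 10 progenitor markers, all above background, had means of 9.19 to 9.29 in female and 8.99 to 9.13 in male pools. Among the female pools this mean was lowest in female pool 2. Of the 10, 9 were lower in males, and 1 passed: NES, an intermediate filament gene, fell by 0.55 (SE 0.08, limma adjusted p = 0.0380). Of the muscle markers 10 of 12 were on the array and 6 lay above background. None passed, and 9 of the 10 differences were above 0, beside 54.5% of all named genes. The mean signal of the 10 was 4.18 to 4.24 in female and 4.33 to 4.35 in male pools, near the background level and without overlap. Among the female pools it was highest in female pool 2. The endothelial, macrophage, and pigment and retina markers had median differences of 0.007, -0.02 and 0.04, and none passed. The median spans of the neuron, red blood cell, progenitor and muscle markers were 61.9, 1.19, 5.54 and 3.81 kb. The part of span and of pool makeup in the shift was not tested.

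**Figure D5:**
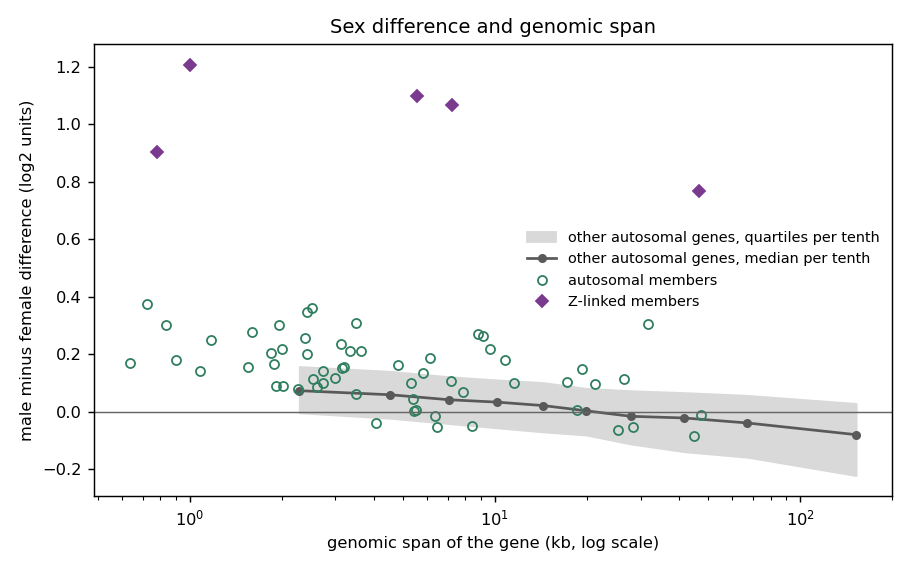
Male minus female difference (log2 units) against genomic span (kb, log scale) for 59 autosomal members above background (circles) and 5 Z-linked members (diamonds). The grey line and band give the median and quartiles of other autosomal genes in bins of equal size by span, whose median runs from 0.07 in the shortest bin to -0.08 in the longest.

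Related gene sets were counted in the same way. The 59 autosomal genes of cytosolic ribosomal proteins had a median difference of 0.04 with 49 above 0. The 60 autosomal subunits of the respiratory chain and the ATP synthase had 0.11 with 50 above 0. Of all autosomal genes 53.2% lay above 0. In 26 of these 60 subunits, or 43.3%, the male pools stood above the female pools without overlap. The share was 37.1% of the autosomal members and 10.5% of all autosomal genes. Of the 3714 other autosomal genes with a span up to 8.72 kb, 68.0% lay above 0 and 17.5% were higher in males without overlap. The differences of the 60 ran from -0.18 to 1.16, with quartiles of 0.05 and 0.15. None of the 60 passed, beside 0.0492% of autosomal genes. On the Z, 4 cytosolic ribosomal protein genes had a median of 0.27, and 4 respiratory chain and ATP synthase genes had 0.80. In all genes of both sets the male pools stood above the female pools without overlap, beside 43.1% of Z genes. None of the 4 cytosolic genes passed and all 4 of the others passed as higher in males, beside 17.2% of Z genes. The cytosolic ribosomal proteins had a median signal of 13.3, near the highest value of the table. No difference between these sets was tested.

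The rest of the machinery for mitochondrial translation was read from 5 lists with 64 measured genes of 95 entries, which hold some genes under more than 1 name. One gene passed, and it is Z-linked. GFM2, a GTPase that helps to split mitochondrial ribosomes after translation ends, read 5.80, 5.83 and 6.02 in female and 6.56, 6.46 and 6.43 in male pools. The groups did not overlap and the difference was 0.60 (SE 0.09, 1.51-fold, limma adjusted p = 0.0305). Its other 3 probe sets were dimmer, at 3.21 to 4.46, and differed by 0.07 to 0.11 without passing. Those at 3.21 and 3.25 lay under background, and the one at 4.46, just above it, gave 0.07 (SE 0.09). The call of GFM2 was lost without any 1 of 5 of the 6 pools, the exception being female pool 3, with adjusted p of 0.0855 to 0.165 (limma).

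None of the other 63 passed. The 4 mitoribosomal proteins that carry other symbols had a median difference of 0.15, all above 0, among them DAP3 at 0.16 (SE 0.08) and AURKAIP1 at 0.15 (SE 0.08), both of the small subunit. For ribosome assembly and rRNA modification the median over 18 genes was 0.12, with 0.34 (SE 0.09) for the pseudouridine synthase family member RPUSD4 and -0.25 (SE 0.09) for the helicase DHX30. Over 12 mitochondrial tRNA synthetases the median was 0.10, with 0.29 (SE 0.08) for RARS2 and 0.33 (SE 0.10) for NARS2. Over 14 genes of mitochondrial transcription, DNA and RNA processing it was 0.11, with 0.33 (SE 0.09) for SSBP1, a single-stranded DNA binding protein, and 0.21 (SE 0.07) for HSD17B10, a subunit of mitochondrial RNase P. The 16 translation factors, GFM2 among them, had a median of 0.09. Over the 61 autosomal genes of the 5 lists the median was 0.10 and 51 lay above 0, beside 53.2% of all autosomal genes. The median span of the 64 genes was 10.9 kb, and 68.0% of the 3714 other autosomal genes with a span up to 8.72 kb lay above 0.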

How the data were processed

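The table holds 38535 probe sets on 6 arrays, 1 per pool. The deposited values are on a log2 scale, and the submitters' processing notes name RMA and affy. Their versions were not given in the sources used here. The RMA method subtracts background, makes the arrays' distributions equal and gives 1 value per probe set, with no detection call. The 153 control and 689 viral probe sets were left out of the tests. A probe set with several symbols named no gene, which left out 1 that lists a member beside another gene. All 67 members matched the RefSeq annotation by gene identifier. The array names no build, so no coordinates are given.

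Male minus female was fitted with lmFit and eBayes (limma 3.58.1, R 4.3.3) on all chicken probe sets, two-sided, with sex as the only term. SE and 95% intervals are those of the fit, SDs are over 3 pools. Precision is limited by having 3 arrays per sex. Named members were the Z-linked ones, those past the threshold, the 6 largest autosomal differences each way, the 4 highest and the 4 lowest signals and the 4 widest ranges within a sex. Members, lists and rules were chosen with earlier results of these data known. The fit was tested on simulated data. Alternatives were a stricter threshold, a robust trended eBayes, array weights, the replicate number as a block, each pool left out, filters on signal, centring on autosomes, cyclic loess, the mean over a gene's probe sets and other comparison genes.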

Additional observations from a re-analysis of the deposited data

How the results depend on the processing

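The median over Z-linked members stayed within 0.99 to 1.08 in every setting tried, and that over autosomal members within 0.09 to 0.17. Both ends of each range came from leaving out a single pool. Without 1 pool each, the count of member probe sets that passed ran from 5 to 8 and that of all chicken probe sets from 113 to 161, and 47 to 55 of the 62 autosomal members lay above 0. At an adjusted p under 0.01 these counts were 5 and 108. The gap of 0.13 between the medians of autosomal members and other autosomal genes was 0.08 without female pool 2, ran up to 0.16 without another single pool, and was 0.08 against short genes. It was 0.0517 against genes in the members' quartiles of span and signal, a setting chosen after the data were seen. In these 2 settings only the comparison genes were limited by span or signal, and all 62 autosomal members were kept. With the replicate number as a block 8 member probe sets and 245 chicken probe sets passed. Deviations of female and male pools of equal number correlated at 0.05, 0.17 and 0.39, and those of unequal numbers at -0.26 to 0.13. Whether equal numbers mark paired pools was not tested. Under the block GFM2 no longer passed (adjusted p = 0.0711, limma). Over 38 named genes and 526 pairs of a gene and a setting, 510 kept their call and 16 lost it, in MRPL50, MRPS30 and GFM2. No called difference changed sign in these settings, while uncalled differences of 8 genes did so 14 times. The cause of the lost calls was not tested.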
